A study of Caenorhabditis elegans with 3 samples.

Results

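The 4 Y-box genes of the nematode Caenorhabditis elegans, cey-1, cey-2, cey-3 and cey-4, were followed on 3 two-colour DNA microarrays. They were taken as the probes that the platform annotation gives to a single gene with one of these names, which found 6 probes among 21632, for 4 of the 14686 named genes tested. The genes cey-2 and cey-4 had 2 probes each, and cey-1 and cey-3 had 1 each. All 6 probes had a value on all 3 arrays, so no member was lost to a filter. Each array carried total RNA of glp-4 L3 larvae, from prep 1, 3 or 4, beside a wild-type mixed reference RNA. The labels give no allele, temperature or culture for glp-4, and no stage or composition for the reference. The product of glp-4 is the synthetase that charges valine tRNA, and worms with a temperature-sensitive glp-4 allele are a common source of tissue nearly free of germ cells. Genotype differs from the reference here and stage may differ too, so a low or high value cannot be assigned to genotype alone. In whole-animal RNA, fewer cells of a type and less RNA per cell cannot be told apart.

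Y-box proteins carry a cold shock domain, a fold that binds nucleic acids, and they coat messenger RNA in the cytoplasm, where they act in its storage, stability and translation. In animal germ cells they are known as components of stored maternal messenger ribonucleoprotein particles (mRNPs). In C. elegans, cey-2 and cey-3 are known as germline genes, whereas cey-1 and cey-4 are also expressed in somatic tissues, and the family is known for a role in polysome formation. The loci are F33A8.3 for cey-1 on chromosome II, F46F11.2 for cey-2 and M01E11.5 for cey-3, both on chromosome I, and Y39A1C.3 for cey-4 on chromosome III, in the RefSeq annotation of assembly WBcel235.

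All values below are log2 ratios of glp-4 L3 over the reference, each array centred on its median. Which channel is on top of the deposited ratio is not stated. A value above 0 is taken here to mean more RNA in glp-4 L3, likely the right way round, because the labels name glp-4 as channel 2 and because germline genes then lie below a wild-type reference. The side on which cey-2 and cey-3 lie is therefore not independent evidence, and if the ratio ran the other way every sign, rank and higher or lower count below would turn while absolute sizes would stand. Over 19580 features the arrays correlated at r = 0.66 for preps 1 and 3, 0.61 for preps 1 and 4, and 0.84 for preps 3 and 4. The log2 values spread least with prep 1 (SD 0.71 over probes, against 0.963 with prep 3 and 1.14 with prep 4). Letters in the array titles, whose meaning the labels do not give, are shared by preps 3 and 4 and differ for prep 1, and what reads as a date in the titles splits the preps in the same way.

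Both germline Y-box genes were far below the reference in glp-4 L3, while cey-1 and cey-4 did not pass the test. The single probe of cey-3 gave log2 ratios of -3.79 with prep 1, -4.51 with prep 3 and -5.55 with prep 4. In the deposited values these are ratios of 72, 43 and 21 thousandths of the reference. The named genes below cey-3 made up 0.109% with prep 1, 0.177% with prep 3 and 0.0272% with prep 4, so it stood at the low end of every array. Its mean was -4.62 ± 0.88 (SD, n = 3), a 24.5-fold lower ratio (adjusted p = 0.00319 by limma with Benjamini-Hochberg adjustment), and it ranked 8 from the lowest among 14686 named genes (8 from the highest if the ratio ran the other way).

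The other germline gene, cey-2, gave -2.98 with prep 1, -1.92 with prep 3 and -1.97 with prep 4 as the mean of its 2 probes. The lowest array was prep 1, and the values with preps 3 and 4 differed by less than 0.1. The mean was -2.29 ± 0.60 (SD, n = 3), or 4.89-fold lower in glp-4 L3 (limma adjusted p = 0.00693), at rank 206 from the lowest of the 14686 named genes. The call was lost when the arrays were scaled to the same median absolute deviation (adjusted p = 0.0604).

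The broadly expressed gene cey-1 gave -0.07, 0.17 and 0.19 with preps 1, 3 and 4, close to the median probe of each array. Its mean was 0.10 ± 0.14 (SD, n = 3; limma adjusted p = 0.701), with a 95% interval of the mean from -0.32 to 0.51. The interval leaves out a 2-fold difference in either direction. For cey-4 the mean of its 2 probes was 0.09, -0.54 and -0.48 with preps 1, 3 and 4, so it lay on both sides of 0. Its mean was -0.31 ± 0.35 (SD, n = 3; limma adjusted p = 0.308), with a 95% interval from -0.81 to 0.19.

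As background, 8.37% of the 19580 features tested were lower in glp-4 L3 and 8.26% were higher, 1638 and 1617 features. Of the 4 Y-box genes, 2 were lower and 0 higher in the same limma fit, and no member was higher at an unadjusted p under 0.05. These background counts turned on the preps, with 3464 lower without prep 1, 212 without prep 3 and 617 without prep 4. The calls of cey-2 and cey-3 held without each prep. With preps 3 and 4 alone, which share these title letters and the apparent date, the means were -5.03 for cey-3 (limma adjusted p = 0.00109), -1.94 for cey-2 (0.00225), -0.51 for cey-4 (0.0833) and 0.18 for cey-1 (0.475).

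**Figure D1:**
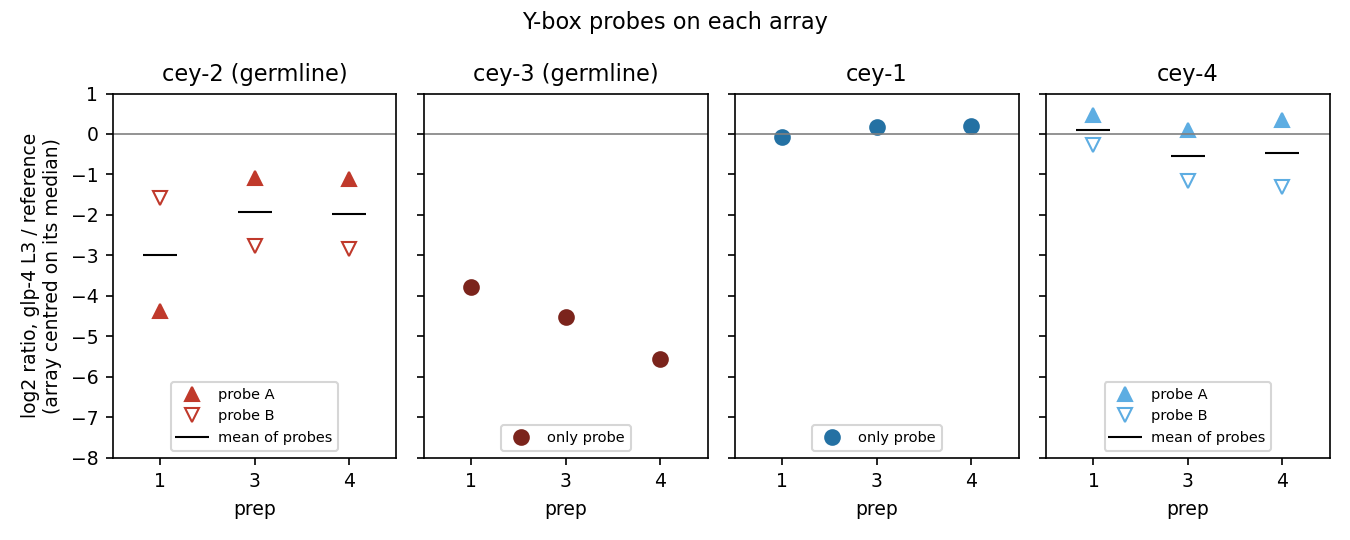
Log2 ratio of glp-4 L3 over the reference for each Y-box probe on the arrays of preps 1, 3 and 4 (vertical axis, array centred on its median); triangles are the paired probes of cey-2 and cey-4, circles the single probes of cey-3 and cey-1, and black bars the mean of a gene's probes. The germline probes lie between -5.55 and -1.08, those of cey-1 and cey-4 between -1.30 and 0.47, and the order of the cey-2 probes with prep 1 is turned with preps 3 and 4.

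The contrast between germline and other Y-box genes was taken within each array, so that the centring cancels. Each gene keeps its own level in the reference RNA, and the difference depends on those levels too. The mean of cey-2 and cey-3 was -3.39, -3.22 and -3.76 with preps 1, 3 and 4, against 0.01, -0.19 and -0.15 for the mean of cey-1 and cey-4. The pair means were apart on each array, but with preps 3 and 4 a single probe of cey-2 lay above a single probe of cey-4. The difference, germline pair minus the others, was -3.40, -3.03 and -3.61 log2 units. The mean difference was -3.35 ± 0.29 (SD, n = 3), a 10.2-fold lower ratio for the germline pair. With prep 1 cey-2 was at its lowest and cey-3 at its highest, so averaging the pair narrowed this SD. For single germline genes minus single other genes the SD ran from 0.46 to 1.01. The SD of the pair difference was 1.52 with arrays scaled to one median absolute deviation and 0.62 with quantile normalization. The pair difference has the same sign on 3 of 3 arrays. The exact two-sided sign-flip permutation test gives p = 0.25, which is the smallest that 3 arrays allow.

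Each germline gene was also below each of the others on all 3 arrays. The log2 difference cey-3 minus cey-1 was -3.72, -4.68 and -5.74 with preps 1, 3 and 4, and cey-3 minus cey-4 was -3.88, -3.97 and -5.07. The difference cey-2 minus cey-1 was -2.91, -2.09 and -2.16, and cey-2 minus cey-4 was -3.08, -1.38 and -1.49. Thus the smallest gaps were those of cey-2 to cey-4 with preps 3 and 4. Of the 7 differences computed, 6 reached the smallest p of 0.25 (exact permutation, 0.292 after Benjamini-Hochberg adjustment over the 7).

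Within the germline pair, cey-2 was above cey-3 on every array, by 0.81, 2.60 and 3.58 with preps 1, 3 and 4, with a mean of 2.33 ± 1.41 (SD, n = 3; exact permutation p = 0.25, the smallest possible). The order from lowest to highest was thus cey-3, cey-2, cey-4 and cey-1 by mean. The earlier steps held on every array for gene means, but not for every single probe. With probe A of cey-2 alone, cey-2 minus cey-3 was 2.43 ± 2.66 (SD, n = 3; exact permutation p = 0.5). The last step was not stable for gene means, because cey-1 minus cey-4 was -0.16 with prep 1 and 0.71 and 0.67 with preps 3 and 4. Its mean of 0.41 ± 0.49 (SD, n = 3) was smaller than its spread over arrays (exact permutation p = 0.5), and against probe A of cey-4 alone the sign turned, to -0.20.

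**Figure D2:**
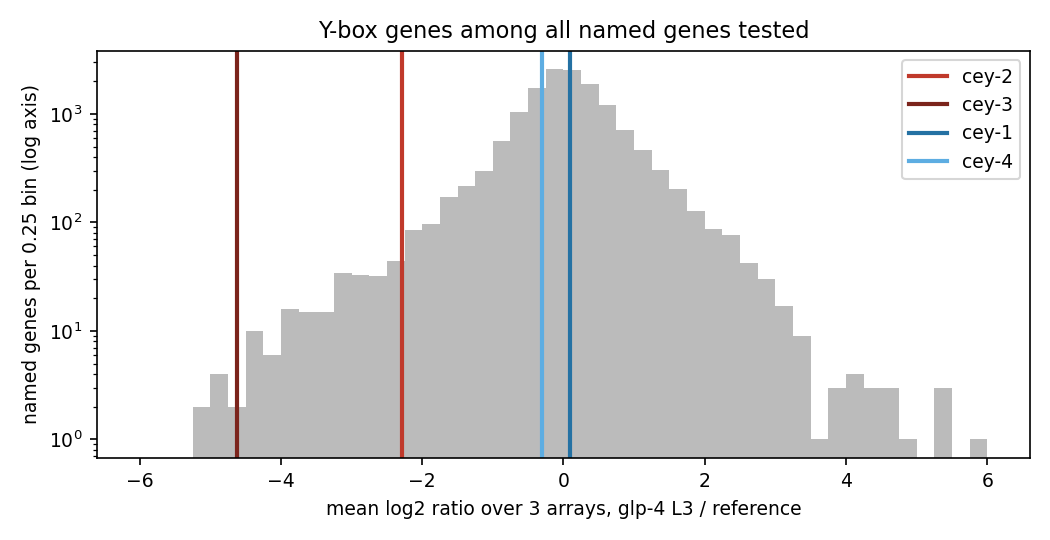
Histogram of the mean log2 ratio of glp-4 L3 over the reference for the 14686 named genes tested (horizontal axis, bins of 0.25; vertical axis, number of genes on a log scale), with a vertical line for each Y-box gene. The lines of cey-3 at -4.62 and cey-2 at -2.29 stand in the lower tail, and those of cey-4 at -0.31 and cey-1 at 0.10 stand in the bulk.

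The paired probes of cey-2 and of cey-4 did not give one value per gene. The probe of each pair with the lower identifier is called probe A here. For cey-2, probe A gave -4.37 with prep 1, -1.08 with prep 3 and -1.11 with prep 4. Probe B gave -1.59, -2.76 and -2.83 in the same order. Both probes were below the reference on every array, but with prep 1 probe A was the lower one and with preps 3 and 4 it was the higher one. Alone, probe B passed the test at -2.39 ± 0.70 (SD, n = 3; limma adjusted p = 0.00836), and probe A did not, at -2.19 ± 1.89 (adjusted p = 0.0897). In that fit of single probes, 8.03% of 21000 probes were lower and 8.14% were higher. With prep 1, probe A of cey-2 was below the cey-3 probe, whereas with preps 3 and 4 it was above it by more than 3 log2 units.

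For cey-4, probe A gave 0.47, 0.09 and 0.34 with preps 1, 3 and 4, and probe B gave -0.28, -1.17 and -1.30. Probe A was thus above 0 and probe B below 0 on all 3 arrays. Neither passed the test alone, with means of 0.30 ± 0.19 (limma adjusted p = 0.268) and -0.92 ± 0.56 (adjusted p = 0.0667; SD, n = 3). The near-zero mean of cey-4 is therefore an average of probes of opposite sign. The contrast with the germline genes narrowed where probe B was used. Over the 9 pairings of a germline probe with a probe of cey-1 or cey-4, 25 of 27 differences were below 0. The other 2 were probe A of cey-2 against probe B of cey-4 with preps 3 and 4, the highest of them at 0.19.

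To place this disagreement, probe A minus probe B was fitted for all 1331 genes with exactly 2 probes, a comparison added after the values were seen. The difference for cey-2 was -2.78 with prep 1, against 1.68 and 1.72 with preps 3 and 4, with a mean of 0.21 ± 2.59 (SD, n = 3; limma adjusted p = 0.936). Its SD was exceeded or equalled by 5 of the 1331 genes, cey-2 included, where the median SD was 0.391. A turn of sign between prep 1 and the other preps was seen in 413 genes. With all 3 differences over 1.5 log2 units it was seen in 2, cey-2 and sru-6. That limit belongs to the comparison added later and lies below all 3 cey-2 differences in size. The place of cey-2 among the 2 is therefore a description and not a test. The difference for cey-4 was 0.75, 1.26 and 1.64, with a mean of 1.22 ± 0.45 (SD, n = 3; adjusted p = 0.165), and 90.5% of the genes had a smaller mean absolute difference. By limma 0 of the 1331 genes were called (0%), and 212 were at an unadjusted p under 0.05. Whether the probes of a gene read different transcripts, or probes of related genes share signal, was not tested, and no probe sequences or intensities were used here.

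**Figure D3:**
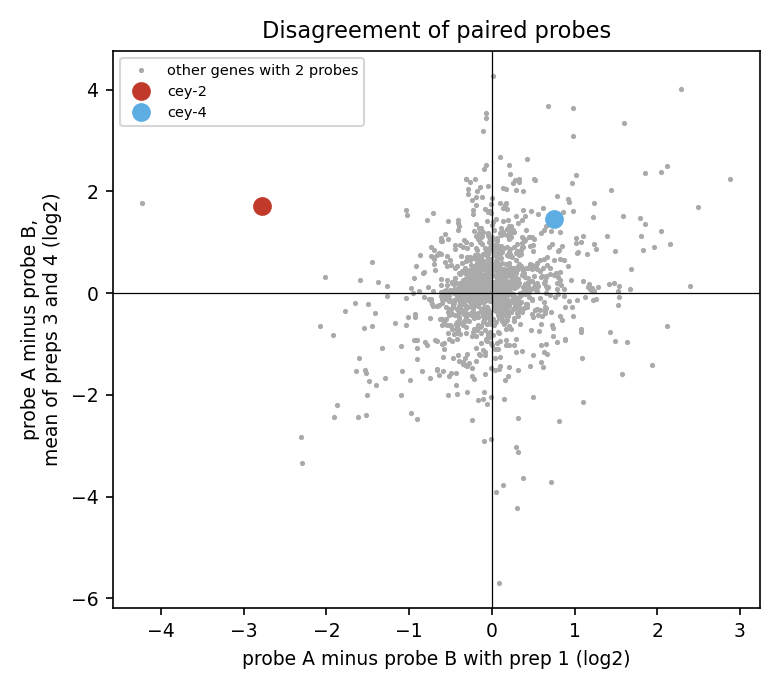
Difference between the paired probes of a gene (probe A minus probe B, log2) with prep 1 on the horizontal axis and averaged over preps 3 and 4 on the vertical axis, with a point for each of 1331 genes with 2 probes. The point of cey-2 lies at -2.78 with prep 1 and above 1.5 with preps 3 and 4, far from the cloud around 0, and cey-4 is above 0 on both axes.

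Y-box proteins work on messenger RNA with other proteins, so the other genes of translational repression and mRNPs were set beside them. Of 33 tested, 21 were lower in glp-4 L3 (8.37% over all features), none was higher (8.26%) and 12 did not pass. The median was -1.49, against 0.03 over all named genes. By limma no member was higher at an unadjusted p under 0.05 either. The lowest were pos-1 (-5.17 ± 0.93), a zinc finger regulator of embryonic cell fate, oma-2 (-4.48 ± 0.71), which acts in oocyte maturation, and spn-4 (-4.33 ± 0.35), an RNA-binding regulator of early embryos (SD, n = 3). Only pos-1 was below cey-3, and 9 of the 33 were at or below cey-2. The RNA helicase gene cgh-1 and its partner car-1, known as components of germline particles that also hold Y-box proteins, were named after their values were seen. They were at -2.29 ± 0.47 (adjusted p = 0.00526) and -1.70 ± 0.24 (adjusted p = 0.00595), and cgh-1 was thus within 0.01 of cey-2. Without prep 3 the lower count was 9. The 12 genes that did not pass are also named here, so that cgh-1 and car-1 do not stand for the list. Their means lay between -0.68 (nos-3) and 0.31 (etr-1). The others among them were edc-3, larp-5, patr-1, dcap-2, edc-4, larp-1, ccr-4, gld-2, atx-2 and ccf-1.

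Most translation factors and poly(A)-binding proteins did not pass the test, and neither did most features. Of 30 tested, 2 were lower, 1 was higher and 27 did not pass, against 8.37% lower and 8.26% higher over all features. The median was 0.24. Without adjustment, 8 (26.7%) were higher by limma at p under 0.05, against 19.3% of all named genes, and 3 were lower. The lower ones were iff-1 (-3.51 ± 1.00), an eIF5A gene, and ife-3 (-1.81 ± 0.23), a cap-binding eIF4E gene, and the higher one was the eIF4E gene ife-2 (1.42 ± 0.62; SD, n = 3). The other eIF4E genes named in the list, ife-1 and ife-4, did not pass. The second eIF5A gene, iff-2, named after its value was seen, was at 0.61 ± 0.32 (limma adjusted p = 0.0907). The higher count was 11 without prep 1, 0 without prep 3 and 0 without prep 4, and the lower count was 0 without prep 3.

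Of 52 cytosolic ribosomal protein genes, 2 were lower, 1 was higher and 49 did not pass, with a median of 0.44. The shares over all features were 8.37% lower and 8.26% higher. The lower ribosomal genes were rpl-11.1 (-2.41 ± 0.10) and rpl-42 (-0.84 ± 0.04), and the higher one was rpl-11.2 (0.94 ± 0.30), a paralog of rpl-11.1 (SD, n = 3). The ratio of rpl-11.1 was close to that of cey-2. On all 3 arrays 36 of the 52 (69.2%) were above 0, against 31.2% of all named genes, and 22 (42.3%) were higher at an unadjusted limma p under 0.05, against 19.3% of all named genes. The higher count was 18 without prep 1, 0 without prep 3 and 0 without prep 4, while 1 was lower when prep 3 or prep 4 was left out. With quantile normalization the higher count was 7.

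**Figure D4:**
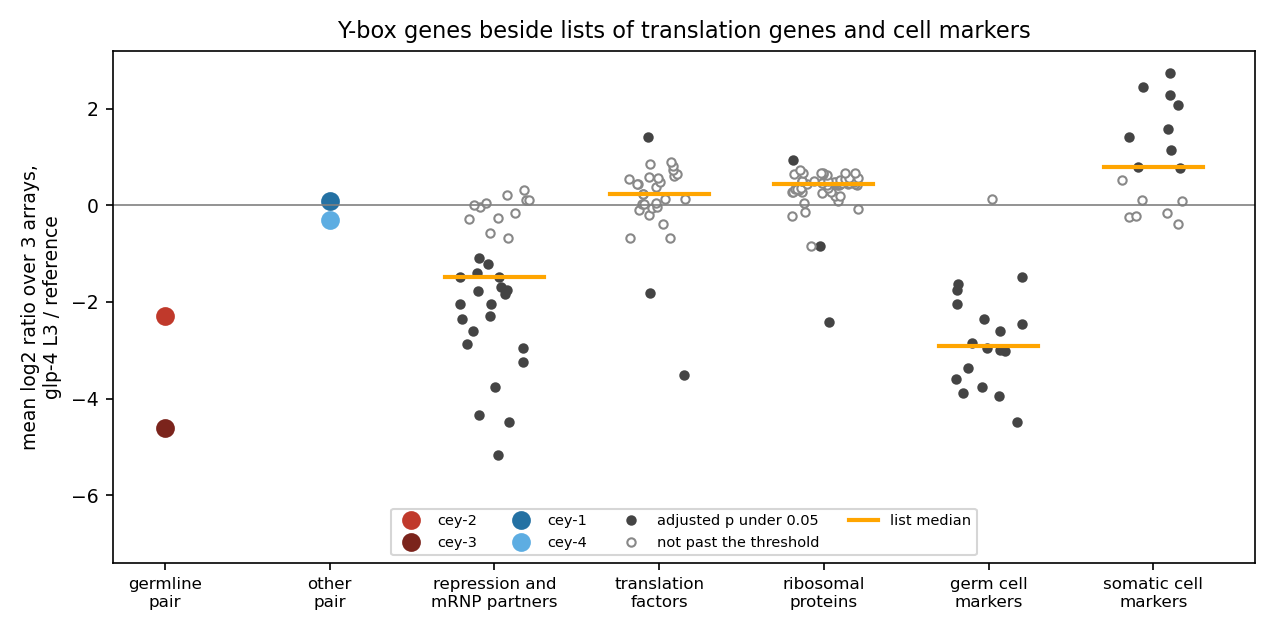
Mean log2 ratio of glp-4 L3 over the reference on 3 arrays for the germline pair cey-2 and cey-3, the pair cey-1 and cey-4, and each member of 5 gene lists; filled points had a limma adjusted p under 0.05, open points did not, and orange bars are list medians. All Y-box genes lie in the range of the repression genes (median -1.49), and cey-3 lies below the lowest of the germ cell markers (median -2.91). The genes cey-1 and cey-4 lie in the ranges of translation factors (median 0.24) and ribosomal proteins (median 0.44). The value of cey-2 is within these ranges only through 1 gene of each list that lies below it, iff-1 and rpl-11.1. The value of cey-3 is below both of those ranges.

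Most markers of germ cells lay on the same side of the reference as the germline pair. Of 18 germ cell markers, 17 were lower and none was higher (none at an unadjusted limma p under 0.05), with a median of -2.91, and medians of -2.93, -2.73 and -3.12 with preps 1, 3 and 4. The lowest were oma-2, with the value given above, and the major sperm protein genes msp-78 (-3.94 ± 0.53) and msp-56 (-3.89 ± 0.38). The exception was the sperm gene spe-9, at 0.13 ± 0.08 (SD, n = 3; adjusted p = 0.576). The germ cell markers and the repression list share 7 tested genes. What part germ cell number has in the values of cey-2 and cey-3 was not tested.

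Of 16 somatic markers, 9 were higher and none was lower (0 at an unadjusted limma p under 0.05), with a median of 0.79. They were led by the intestinal transporter genes pept-1 (2.73 ± 0.38) and nhx-2 (2.44 ± 0.19) and the troponin gene unc-27 (2.29 ± 0.39; SD, n = 3). Both cey-1 and cey-4 were below this median. The higher count was 4 without prep 3. The 7 markers that did not pass are named here so that both sides of the list are shown. They were rab-3 (-0.39), elt-3 (-0.23), lim-7 (-0.22), snb-1 (-0.15), unc-119 (0.08), unc-64 (0.12) and dpy-7 (0.53). Of the 16 markers, 3 were below 0 on all 3 arrays and 9 were above 0.

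The named genes whose values were nearest to each Y-box gene were found by Euclidean distance over the 3 arrays among the 14686 named genes. Nearest to cey-3 were the small heat shock gene sip-1, at a distance of 0.71, EEED8.3 (0.75), the collagen gene col-36 (0.77), the glutamine synthetase gene gln-6 (0.87) and the small heat shock gene hsp-12.6 (0.88). The neighbourhood was sparse, with 7 genes within 1 log2 unit. Nearest to cey-2 were pes-2.1 (0.36), T05B9.1 (0.40), the tyrosine decarboxylase gene tdc-1 (0.43), D2030.7 (0.46) and snrp-40.1 (0.51), and 48 genes lay within 1 unit. For cey-1 and cey-4, which lie in the bulk, 8137 and 6074 genes lay within 1 unit, so nearness carries little there. The nearest to cey-1 were srr-9, cgef-1, pcf-11, cca-1 and mml-1, and the nearest to cey-4 were K09C4.2, sre-42, srd-16, oac-47 and mtq-2. With 3 arrays these distances describe similar values and nothing more.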

How the data were processed

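Preps 1, 3 and 4 of glp-4 L3 were each hybridised with reference RNA on a two-colour array and taken as 3 replicates of 1 group. The labels do not say whether the preps came from separate cultures, so the spread behind each p-value is that of these samples and may be only technical. The deposited values are log2 ratios, as read from the numbers: below a ratio of 1, 100% were the logarithm of a ratio rounded to 3 decimals, within 1 hundredth of a thousandth. How the authors corrected background and normalized is not given in the sources used here. Intensities were not used, so nearness to background could not be judged.

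Of 16450 single-gene probes, 16360 matched RefSeq by gene number and 5 by accession. The annotation gave several genes for 247 probes and none for 4935. Arrays were centred on their medians, which as deposited were -0.0072, -0.0247 and -0.0262 with preps 1, 3 and 4, and probes of a gene were averaged. The mean of each of 19580 features measured on all arrays was tested against 0 with limma 3.58.1 in R 4.3.3 (two-sided; Benjamini-Hochberg over all features, threshold 0.05). The reference is 1 control RNA, so its own spread is left out. Differences between members were tested by exact sign-flip permutation. The procedure was run on simulated data with independent arrays of equal spread. The arrays here differ in spread, so that run was a check of the code and not of these calls. Members and gene lists were chosen with earlier results of these data known.

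Named genes are the 4 members, from each list at most 3 genes called in the direction of most calls and at most 2 called in the opposite one, by size of the mean, the 5 genes nearest to each member, and the cold shock domain gene lin-28, which is not analysed here. Exceptions are marked where they occur. Alternatives were no centring, equal array scale, quantile normalization, a robust variance prior, single probes in place of gene means, features with values on 2 arrays or more, and each prep left out. Array weights were added after the data were seen. The title letters and apparent date, as a random block, gave no value in limma's duplicateCorrelation.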

Additional observations from a re-analysis of the deposited data

How the results depend on the processing

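The calls of cey-3 held under every alternative run, and cey-1 and cey-4 stayed short of the threshold in all of them. The call of cey-2 was lost with arrays scaled to one median absolute deviation (-2.59, limma adjusted p = 0.0604) and with probe A alone (-2.19, adjusted p = 0.0897); over its alternatives the adjusted p ran from 0.0011 to 0.0897. With 1 prep left out, the mean ran from -5.03 to -4.15 for cey-3, from -2.48 to -1.94 for cey-2, from -0.51 to -0.19 for cey-4 and from 0.05 to 0.18 for cey-1, and the germline pair minus the other pair from -3.50 to -3.21. With single probes that difference was -2.99 for cey-2 probe A and cey-4 probe B, and -3.70 for cey-2 probe B and cey-4 probe A. The difference cey-1 minus cey-4 was 1.01 against cey-4 probe B and -0.20, of opposite sign, against probe A. With 1 prep left out, counts ran from 212 to 3464 features lower and from 174 to 3211 higher, from 9 to 21 repression genes lower, from 0 to 3 translation factors lower and 0 to 11 higher, from 1 to 3 ribosomal genes lower and 0 to 18 higher, and from 4 to 9 somatic markers higher. Among the germ cell markers, 12 were lower without prep 3, and 17 without prep 1 or without prep 4. With array weights, 4161 features were lower and 3938 higher. Quantile normalization gave 3 higher translation factors and 7 higher ribosomal genes, and equal array scale and the robust prior gave 2 higher ribosomal genes each. The cause of these shifts was not tested. Without intensities, the signal behind the low ratios of cey-3 and cey-2 is unknown. No pairing between sample groups was possible because there is a single group, while differences between members were taken within each array.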

Other observations

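The germline genes cey-3 and cey-2 lie on the same chromosome with 9 protein-coding genes between them in the RefSeq annotation. Of the 8 that were tested, 1 was lower in glp-4 L3 and 1 was higher (limma adjusted p under 0.05), against 8.37% lower and 8.26% higher over all features, with a median of -0.08 and a range from -0.93 to 1.32. The lower one was rmh-1 (-0.93, adjusted p = 0.0393) and the higher one was the vacuolar proton pump gene vha-10 (1.32, adjusted p = 0.0121). All 8 lay above cey-2 and cey-3. These genes were looked at after the values of the Y-box genes were known.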
